A study of Homo sapiens with 10 samples.

Results

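ESC-only promoter interactions are ordered pairs of genomic fragments, captured promoter fragment first, from promoter capture Hi-C (PCHi-C). They were called in both replicates of human embryonic stem cells (ESCs) and in no list of the neuroectodermal cells (NECs) made from them. A pair was a member when it had a CHiCAGO score of at least 12 in both ESC replicates and was absent from both NEC replicates and from the merged NEC list. This rule chose 5721 of the 312601 pairs that occurred in any of the 6 lists, or 1.83%. With order ignored, 5648 of the members were kept, as the others had a NEC call in the opposite order. CHiCAGO scores a pair by how far its reads exceed those of a random collision at that distance, on a negative log scale, and the lists hold no pair below a score of 12. As these scores chose the members, their values and the contrast of ESC with NEC calls are given as a description with no test.

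The cells were undifferentiated H9, an established human ESC line, and NECs derived from H9 and harvested on day 7 of differentiation. Both states come from this single line, and ESC replicate 2 of PCHi-C pooled technical replicates. PCHi-C and RNA-seq each had 2 biological replicates per cell type, and RNA levels are given in CPM, which are counts scaled to library size. PCHi-C cuts the genome at HindIII sites and enriches the ligation products that contain a baited promoter fragment, or bait, and the fragment at the other end is called a promoter-interacting region (PIR). The lists held 81168 to 100305 calls per replicate from 21875 baits and gave no read numbers, so the depth behind a score is unknown. The RNA libraries held 19234087 to 25356382 counts. POU5F1, a core pluripotency factor, stood at 1482 and 1438 CPM in the 2 ESC libraries against 31.0 and 111 in the 2 NEC libraries, and PAX6, which marks neuroectoderm, stood at 1.64 and 1.13 against 86.5 and 52.9. Both ESC libraries came from one sequencing lane and both NEC libraries from another, so lane and cell type cannot be told apart.

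Promoters contact distant DNA by looping within the nucleus, and such contacts can bring enhancers or other promoters close to a gene start. In pluripotent cells, promoters of silent developmental regulators are commonly covered by Polycomb proteins and contact each other over long distances. The microRNAs of the miR-302/367 cluster and the NODAL antagonists LEFTY1 and LEFTY2 belong to the active programme of these cells.

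The miR-302/367 cluster was spread over 3 adjacent baits, all of which held members. The mature microRNAs, from RefSeq on GRCh38.p14, are shown because they name the baits. Capitals mark the seed, bases 2 to 8.
hsa-miR-302a-3p: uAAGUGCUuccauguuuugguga
hsa-miR-302b-3p: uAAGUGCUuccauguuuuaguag
hsa-miR-302c-3p: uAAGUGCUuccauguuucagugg
hsa-miR-302d-3p: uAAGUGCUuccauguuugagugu
hsa-miR-367-3p: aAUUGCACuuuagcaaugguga
The 4 miR-302 sequences share 1 seed and miR-367 has another. The MIR302A bait was itself only 191 bases long, at chr4:113569261-113569451 of GRCh37. Its sequence is given on the minus strand, with the MIR302A hairpin in capitals.
MIR302A bait: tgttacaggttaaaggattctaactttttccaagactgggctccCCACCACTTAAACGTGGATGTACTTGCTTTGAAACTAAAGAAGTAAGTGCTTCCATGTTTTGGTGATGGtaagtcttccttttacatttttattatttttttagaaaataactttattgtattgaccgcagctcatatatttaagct

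The MIR302A bait held 6 members. Its strongest member reached an exonic fragment of LARP7 at chr4:113567831-113568685, with scores of 37.88 and 32.51 in ESC replicates 1 and 2. The 2 fragment midpoints lie 1.10 kb apart, with the MIR302D and MIR367 bait between them. A fragment 59.4 kb away, at the start of RP11-148B6.2, was called at 25.02 and 13.43. An intergenic fragment at chr4:113678853-113683536, 112 kb away, was called at 23.76 and 19.71. The adjacent bait that holds the MIR302D and MIR367 hairpins (chr4:113568686-113569260) reached this same intergenic fragment at 14.82 and 19.54. No NEC list held a call from either bait to a fragment within 10 kb of it. For the LARP7 fragment a NEC list did hold such a call. The third bait (chr4:113569452-113575739) holds the MIR302B and MIR302C hairpins and the start of RP11-148B6.1, the transcript that spans the cluster on the minus strand. The LARP7 fragment of the strongest member also lies within this transcript, and the baits of the cluster themselves lie within LARP7. The third bait held 4 members, of which 2 lay in introns of ANK2, 283 and 289 kb away. For each of these 4 members a NEC list held a call from the same bait within 10 kb.

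RNA from this locus was abundant in ESCs. RP11-148B6.1 stood at 448 and 471 CPM in the ESC libraries and at 26.6 and 79.8 in the NEC libraries, and the cell types did not overlap. It fell (log2 fold change -3.11 with SE 0.46, edgeR adjusted p = 0.00163). LARP7, which encodes a binding protein of 7SK RNA, stood at 464 and 536 against 106 and 163 CPM (log2 fold change -1.89 with SE 0.21, adjusted p = 5.11e-04). The 2 genes overlap on opposite strands and the counting ignored strand, so their reads cannot be told apart, and mature microRNAs were not measured.

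A long-range cluster of members joined EN2 and MNX1, 2 homeobox genes whose starts lie 1553 kb apart on chromosome 7. EN2 encodes a patterning factor of the midbrain and hindbrain, and MNX1 one of motor neurons and pancreas. In this region 20 members had an end at EN2, CNPY1, SHH, RBM33 or MNX1, the MNX1 bait holding 10 and the EN2 bait 4. The strongest ran from the EN2 bait (chr7:155247684-155262051) to an intergenic fragment just upstream of MNX1 (chr7:156808417-156810927), 1555 kb away, with scores of 32.99 and 35.07. The ends of that fragment are shown because they set how finely this contact is located. Each is on the plus strand of GRCh37 with the HindIII site in capitals.
Lower end, chr7:156808387-156808446: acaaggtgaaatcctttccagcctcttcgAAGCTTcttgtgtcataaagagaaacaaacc
Higher end, chr7:156810898-156810957: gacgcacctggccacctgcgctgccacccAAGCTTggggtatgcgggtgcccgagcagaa

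**Figure D1:**
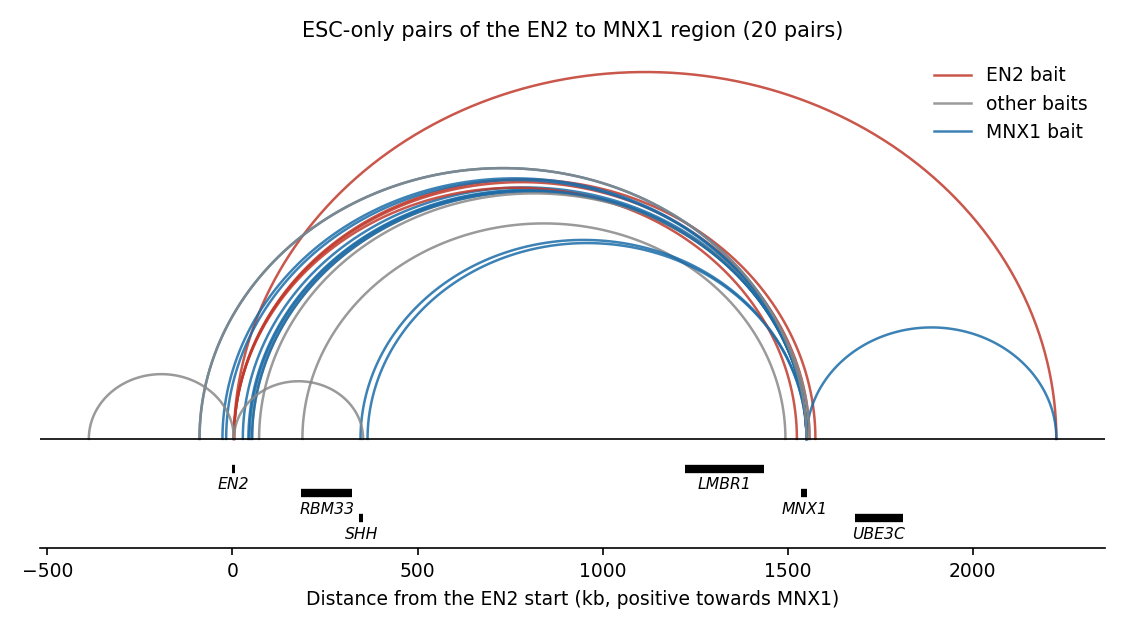
Each arc joins the midpoints of 1 ESC-only pair, against distance from the EN2 start in kb, and its height is proportional to its length. Black bars are gene bodies, and most of the 20 arcs span the interval from EN2 to MNX1, with 4 from the EN2 bait and 10 from the MNX1 bait.

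Several of these contacts were called more than once. The bait of AC008060.5, inside CNPY1, and the MNX1 bait were called from both ends over 1497 kb, at 32.92 and 20.85 from the former and at 30.86 and 18.18 from the latter. EN2 and MNX1 also reached the same exonic fragment of PTPRN2 (chr7:157472845-157479930), 2222 kb from EN2 and 675 kb from MNX1. MNX1 reached an exonic fragment of SHH, the hedgehog ligand, over 1205 kb at 13.68 and 12.88, and the SHH bait reached EN2 over 349 kb at 12.17 and 15.04. At the MNX1 bait as a whole, 34 and 24 interactions were called in the ESC replicates against 5 and 10 in the NEC replicates. The domain was not without NEC contacts, since for 11 of the 20 members a NEC list held a call from the same bait to a fragment within 10 kb.

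EN2 had 0 counts in both ESC libraries and 124 and 25 in the NEC libraries, and it was at least 24.3-fold higher in NECs (edgeR adjusted p = 0.00862). Such bounds set the cell type at the floor to 3 counts per library and use the mean of the other, here 5.80 and 1.01 CPM. Without NEC library 1 the bound for EN2 was 7.23-fold. MNX1 stayed near the floor, with 3 and 2 counts in ESCs and 10 and 2 in NECs. SHH had 7 and 26 counts against 19 and 6, and the cell types overlapped. The EN2 promoter thus held ESC-only contacts while its transcript was not detected in ESCs.

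Other members joined developmental transcription factor genes of the same family. The bait of SIX6, a homeobox factor of eye development, held 7 members. The 2 ESC replicates called 10 and 14 interactions from it against 3 and 6 in NECs. The count table places the SIX6 start just outside this bait and the GENCODE annotation places it inside. On chromosome 2, the SIX3 bait reached SIX2 over 68.3 kb at 13.91 and 15.61. On chromosome 10, the bait of VAX1, a forebrain and eye factor, reached EMX2, a cortical patterning factor, over 409 kb at 21.38 and 14.80. Neither of these last pairs had a NEC call within 10 kb. HOXA2 reached HOXA4 over 30 kb, with a NEC call within 10 kb, and HOXB7 reached HOXB9 over 12 kb, with none. These 4 pairs were the members with a homeobox gene start at both ends.

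The RNA of these genes was low in ESCs. SIX6 had 0 and 1 counts in ESCs and 17 and 9 in NECs and was not tested. SIX3 stood at 0.212 and 0.364 CPM in ESCs against 4.31 and 1.82 in NECs and rose (log2 fold change 3.34 with SE 0.58, edgeR adjusted p = 0.00296). EMX2 had 0 counts in both ESC libraries and 243 and 123 in NECs, at least 58.4-fold higher, or 35.6-fold without NEC library 1. HOXA2 had 0 and 1 counts against 732 and 674, at least 220-fold higher in NECs. SIX2 did not pass, at 14 and 18 counts against 10 and 16, and VAX1 was too low to test, at 0 and 0 against 7 and 2.

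Across all baits, 19.0% held at least 1 member. Of the 207 baits with the start of a gene described as homeobox, 35.7% did, against 34.8% for NEC-only pairs and 38.2% for pairs in all 4 replicates. Over all baits these last shares were 17.8% and 18.2%. NEC-only pairs are defined by the same rule with the cell types exchanged. The 78 homeobox genes at ESC-only promoters included 39 that were tested, of which 24 rose and 3 fell in NECs. Among all homeobox genes, 59 of 122 tested rose and 19 fell, and over all 17564 genes tested 11.4% rose and 9.68% fell. The family was chosen after its values were seen.

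Keratin genes, which encode filaments of epithelia and hair, and olfactory receptor genes lie in large clusters that are mostly silent outside their own tissues. Of 122 baits of keratin or keratin-associated genes, 30.3% held an ESC-only pair and 14.8% a NEC-only pair. Of 310 olfactory receptor baits, the shares were 25.2% and 11.6%. The opposite order was seen for 46 baits of histone cluster genes, at 37.0% against 87.0%, and for 47 protocadherin baits, at 36.2% against 68.1%. In a setting added after the data were seen, requiring that no call of the other cell type lay within 10 kb left 17.2% against 9.02% for keratins and 18.4% against 7.42% for olfactory receptors, where 11.7% of all baits held an ESC-only pair. These families too were chosen after their values were seen, and neighbouring baits of a cluster share their surroundings, so they are no replicates.

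**Figure D2:**
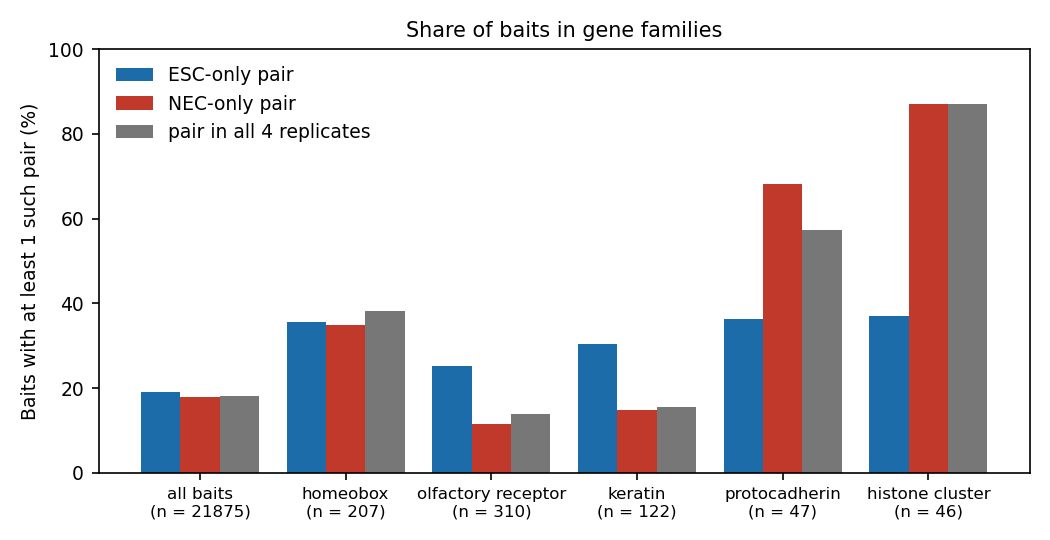
Bars give the percentage of baits in each gene family, and of all 21875 baits, that held at least 1 ESC-only pair, NEC-only pair or pair called in all 4 replicates. For keratin and olfactory receptor baits the ESC-only bar is the highest, at 30.3% and 25.2%, and for histone cluster and protocadherin baits it is the lowest.

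Many of these pairs joined 2 members of the same family. Of the 118 pairs from olfactory receptor baits, 46 ended at another olfactory receptor gene start and 60 were on chromosome 11. OR2W3 reached OR14I1 over 814 kb at 17.61 and 22.45, and OR52I2 reached OR51I1 over 882 kb at 17.22 and 17.09. Of the 59 pairs from keratin baits, 21 ended at another such gene and 28 were on chromosome 17. KRT12 reached the fragment of KRT15 and KRT19 over 652 kb at 14.42 and 15.28. On chromosome 11, KRTAP5-10 reached DHCR7, which encodes the last enzyme of cholesterol synthesis, over 116 kb at 19.30 and 21.75. Most of these bait genes were undetected, as 67 of 79 olfactory receptor genes and 32 of 40 keratin genes at ESC-only promoters had 0 counts in all 4 libraries.

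The LEFTY locus combined ESC-only contacts with large falls in RNA. LEFTY1 and LEFTY2 encode secreted inhibitors of NODAL, the TGF-beta ligand that maintains human pluripotency. The LEFTY1 bait (chr1:226098282-226100464) held 4 members. It reached the bait with the start of LEFTY2 over 24 kb at 13.50 and 14.58, and the TMEM63A start over 32.4 kb at 12.55 and 16.87. It also reached an exonic fragment of LBR over 484 kb. For the TMEM63A and LBR members a NEC list held a call within 10 kb, and the LEFTY1 bait also held 1 NEC-only pair. LEFTY1 stood at 382 and 361 CPM in ESCs and at 0.140 and 0.405 in NECs (log2 fold change -10.34 with SE 0.23, edgeR adjusted p = 5.87e-06). LEFTY2 stood at 240 and 251 against 0.374 and 0.446 (log2 fold change -9.20 with SE 0.15, adjusted p = 2.82e-06). TMEM63A, a mechanosensitive ion channel gene, fell by 2.47 on the log2 scale. LEFTY1 and LEFTY2 are close paralogues, so the split of reads between them is uncertain.

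The BTNL2 bait in the MHC held 9 members, and all 9 ended at other baits. BTNL2 encodes a butyrophilin-like inhibitor of T cells, and the neighbouring HLA genes encode class II antigen-presenting molecules. The strongest ran to the bait of HLA-DQB1-AS1, 246 kb away, at 36.29 and 20.80. The bait reached HLA-DRA at 16.68 and 18.87 and HLA-DRB1 at 27.04 and 13.79. The others included TNXB, HLA-DQA2, TAP2 and the shared start fragment of PSMB8 and PSMB9. For the members at HLA-DQB1-AS1 and at PSMB8 and PSMB9 a NEC list held a call within 10 kb, and for the others none did. In ESCs 18 and 13 interactions were called from BTNL2, against 0 and 7 in NECs and 0 in the merged NEC list. HLA-DQB1 stood at 25.6 and 35.4 CPM in ESCs against 1.08 and 1.42 in NECs and fell by 4.60 on the log2 scale (SE 0.25, edgeR adjusted p = 4.42e-05). HLA-DRB1 fell by 1.60 (SE 0.23, adjusted p = 0.00133). At the other contacted baits TNXB, TAP2 and PSMB8 were tested and not called, with log2 fold changes of 1.02, -0.56 and -1.84. BTNL2 itself had 5 to 11 counts in each library and was not tested, and reads of HLA genes may be split among paralogues.

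AGMAT, whose product is related to agmatinase, resembled BTNL2 in that all 7 of its members ended at other baits. They included PLEKHM2 over 104 kb at 29 and 13.05, FBLIM1 over 172 kb at 15.97 and 21.02, and the SCARNA21 bait over 49.1 kb at 26.06 and 20.96. Each NEC list held 0 calls from AGMAT, where the ESC replicates held 13 and 8. Only 27 member baits, or 0.650%, were without any NEC call. AGMAT stood at 5.56 and 5.74 CPM in ESCs against 0.468 and 1.09 in NECs (log2 fold change -2.82 with SE 0.38, edgeR adjusted p = 0.00117). FBLIM1, which links filamin to adhesion sites, also fell, by 1.52. PLEKHM2, SLC25A34, ARHGEF19 and DNAJC16, at other fragments AGMAT reached, were not called, with log2 fold changes of 0.34, 0.71, 0.17 and -0.09.

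Several of the promoters richest in members contacted 1 neighbouring gene and its surroundings. The bait of RP1-122O8.7 lies within MDN1, and 9 of its 10 members lay in MDN1 and 1 in CASP8AP2, at 29.2 to 175 kb. MDN1 encodes a very large ATPase of ribosome assembly. It stood at 630 and 736 CPM in ESCs against 71.4 and 101 in NECs (log2 fold change -2.99 with SE 0.19, edgeR adjusted p = 7.37e-05). The SNORD98 bait within CCAR1 held 7 members, of which 4 were in exonic fragments of DDX21, an RNA helicase of ribosome synthesis. DDX21 stood at 539 and 578 against 127 and 171 CPM and fell by 1.90 (SE 0.16). LRCH2, on the X chromosome, held 7 members within and beyond PLS3, which encodes an actin-bundling plastin, at 382 to 491 kb. PLS3 stood at 1001 and 909 against 265 and 289 CPM and fell by 1.79 (SE 0.11). LRCH2 itself was not called, with a log2 fold change of 0.42. A NEC call lay within 10 kb of each of the 7 LRCH2 members and of each of the 4 DDX21 members. The same held for most of the 10 RP1-122O8.7 members.

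At other promoters the genes at the 2 ends differed. ARFGAP2, which encodes a coat regulator of the Golgi, shares with PACSIN3 a bait that held 7 members over F2 and CKAP5 at 372 to 457 kb. For most of these 7 members a NEC list held a call within 10 kb. PACSIN3, which encodes an endocytic adaptor, fell by 1.54 on the log2 scale. F2, the prothrombin gene, rose by 1.55 (SE 0.53, edgeR adjusted p = 0.0404) at low counts, 2 and 7 in ESCs and 12 and 16 in NECs. CKAP5, a microtubule polymerase gene, stood at 274 and 241 CPM in ESCs and 473 and 474 in NECs, with a log2 fold change of 0.88 that did not reach the fold threshold of 1.5. METTL9, which encodes a histidine methyltransferase, held 14 members at 1058 to 1544 kb, running past HS3ST2 into USP31. METTL9 itself stood at 113 and 109 against 145 and 138 CPM and was not called, while HS3ST2, a heparan sulphate sulphotransferase gene, stood at 0.954 and 1.13 against 0.234 and 0.162 and fell by 2.39. For 12 of these 14 members a NEC list held a call within 10 kb, and the METTL9 bait still had 24 and 13 calls in NECs against 55 and 41 in ESCs.

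**Figure D3:**
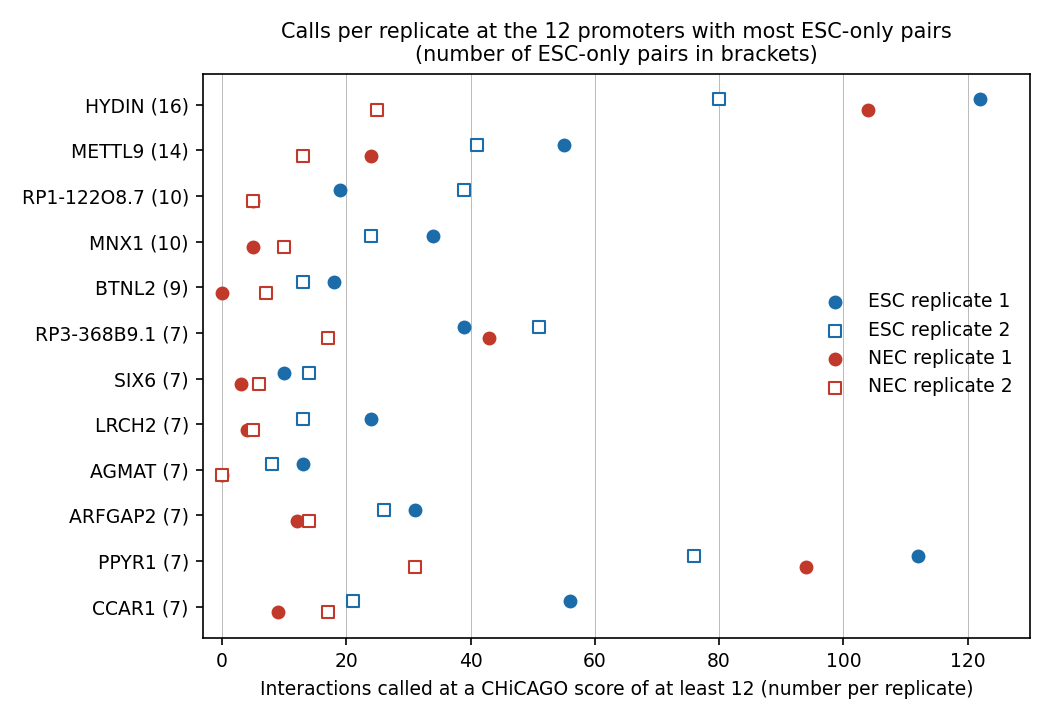
Points give the number of interactions called from each of the 12 baits with the most ESC-only pairs, in each of the 4 replicates, and each bait is labelled by a gene that starts or lies there. All of these baits but HYDIN, RP3-368B9.1 and PPYR1 had fewer calls in both NEC replicates than in either ESC replicate. At HYDIN, RP3-368B9.1 and PPYR1 the 2 NEC replicates lay far apart.

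The remaining baits of the 12 with most members made contacts over very long distances or between chromosomes. The bait inside HYDIN, a gene of motile cilia, held the most, 16, of which 11 reached chromosome 1, in a region that holds PRKAB2, CHD1L, BCL9 and NBPF15. One of these, at chr1:146561930-146566013, had the highest replicate 1 score of all members, 82.57, and 21.92 in replicate 2. GENCODE annotates a related copy of HYDIN, the pseudogene HYDIN2, on chromosome 1, and the part that shared sequence plays in these calls was not tested. RP3-368B9.1 on chromosome 4 held 7 members, of which 4 lay on chromosome 9 and 1 on chromosome 20. PPYR1 on chromosome 10 held 7 at 1524 to 4481 kb, which included the starts of MAPK8 and NCOA4. In the NEC replicates these 3 baits had 104 and 25, 43 and 17, and 94 and 31 calls. In all, 52 members joined different chromosomes and 63 joined fragments over 2 Mb apart, and a NEC call lay within 10 kb for 65.4% and 54.0% of them.

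Among the 10 members with the highest lower score of the 2 ESC replicates, 5 joined different chromosomes. They were RP3-368B9.1 with chromosome 9 at 39.78 and 49.69, DHX32 with chromosome 21 at 35.50 and 32.97, HYDIN with chromosome 1 at 32.49 and 38.62, MYT1 with chromosome 12 at 30.75 and 49.57, and RP11-1149O23.4 with chromosome 10 at 28.75 and 33.11. A further pair, from C1orf147, spanned 62660 kb of chromosome 1 at 36.19 and 26.59. A NEC call lay within 10 kb for this pair and for all of the 5 but that of RP11-1149O23.4. The other 4 were at shorter range. Besides the EN2 and MIR302A pairs already given, a bait with a snoU13 copy reached the start of RCC2, a regulator of mitosis, over 17.2 kb at 43.65 and 37.69. TRAF3IP3 reached LAMB3, a laminin chain gene, over 101 kb at 42.55 and 29.25. The EN2 and MIR302A pairs had a NEC call within 10 kb, and the RCC2 and LAMB3 pairs had none. RCC2 stood at 619 and 755 CPM in ESCs against 303 and 311 in NECs, with a log2 fold change of -1.16 that did not pass the fold threshold.

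At the other end, the lowest members stood at the threshold. MPDU1 and SOX15 shared a bait with a member at 12 and 13.62, KRT38 had one at 17.58 and 12, and FAM3B one at 12.18 and 12. The lower score was under 13 for 3658 of the 5721 members, at least 15 for 378 and at least 20 for 47. Just outside the rule were 1309 pairs in both ESC replicates and neither NEC replicate that the merged NEC list held, at a median merged score of 13. A further 788 pairs fell out through NEC replicate 1 alone, at a median of 12.8, and 775 through NEC replicate 2 alone, at 13.1. The median member scored 13.3 and 13.2 in the 2 ESC replicates.

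Members were intermediate in range. The median distance between fragment midpoints was 303 kb (quartiles 154 and 545), against 386 kb (208 and 706) for the 5718 NEC-only pairs and 198 kb (98 and 380) for the 7822 pairs in all 4 replicates. Pairs over 1 Mb made up 7.90% of ESC-only and 13.8% of NEC-only cis pairs. Pairs under 50 kb numbered 399 and 148. Distance also enters the score through its weights, and the 4 replicate lists themselves had medians of 377 to 436 kb, so the differences are described without a test.

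**Figure D4:**
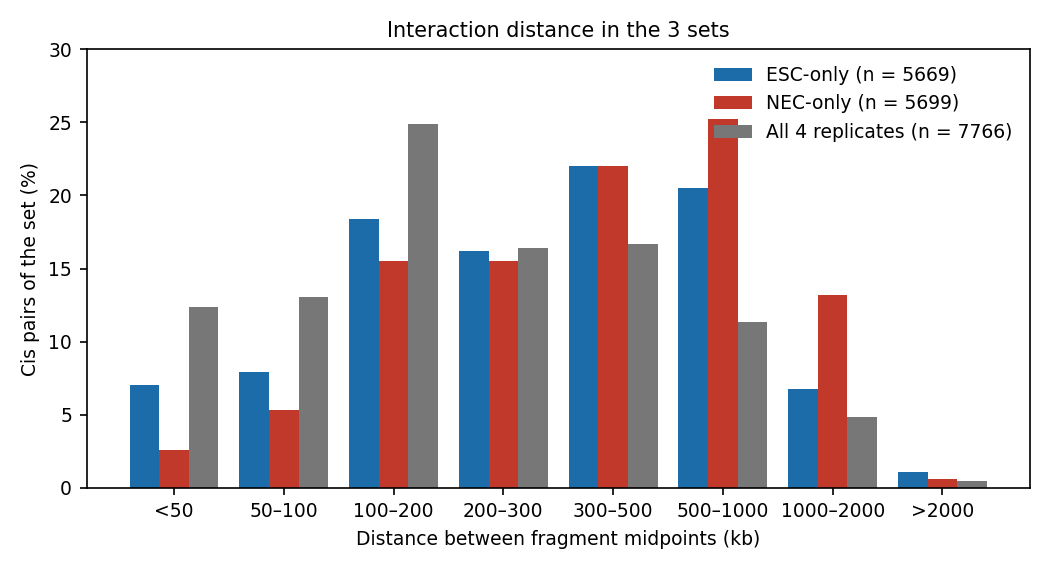
Bars give the percentage of cis pairs in each class of distance between fragment midpoints, for 5669 ESC-only pairs, 5699 NEC-only pairs and 7766 pairs in all 4 replicates. ESC-only pairs lie between the other sets below 200 kb, and NEC-only pairs are the most frequent from 500 to 2000 kb.

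Another bait was the contacted fragment in 2150 members, or 37.6% (95% Wilson interval 36.3 to 38.8, counting error only), against 30.9% of NEC-only pairs and 57.7% of pairs in all 4 replicates. A NEC call lay within 10 kb for 23.5% of contacts between baits and for 60.8% of contacts with other fragments. For 2675 members, or 46.8%, a NEC list held such a call from the same bait. Here and above, NEC calls made from the contacted end were not searched, which matters for contacts between baits. The members spread over 4151 baits and 5241 contacted fragments, and 3121 of these baits held 1 member and 46 held at least 5. Of the member baits, 35.1% also held a pair in all 4 replicates and 25% a NEC-only pair.

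Most contacted fragments outside promoters lay in genes. Of all 5241, 27.2% held the start of a protein-coding gene, 30.7% another exonic stretch, 14% only intron and 28.1% lay between protein-coding genes. For NEC-only pairs the exonic share was 23.3% and the intergenic share 37.2%. The fragments contacted from the most baits, 4 each, included those at C6orf27 in the MHC, at OR51I1, in VCL, which encodes vinculin, at ZNF583 and at ARMCX3. The fragment in VCL was contacted from PLAU, C10orf55, RP11-574K11.8 and VCL itself, and that of ZNF583 from FCAR, NLRP9, ZSCAN5C and the bait of ZNF580 and ZNF581. By chromosome, 7.13% of members and 4.39% of NEC-only pairs were on chromosome 17, and 12.3% and 9.51% on chromosome 1, whereas chromosome 6 held 6.48% and 11.7%.

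The sequence of contacted fragments was searched for the core of the CTCF motif on both strands. CTCF is the zinc finger protein that anchors many loops together with cohesin. Among contacted fragments of 2 to 8 kb, 223 of 3118 held it, or 7.15% (Wilson 6.30 to 8.11), against 8.98% (8.02 to 10) for NEC-only pairs and 11.4% (10.3 to 12.6) for pairs in all 4 replicates. All HindIII fragments of this length held it in 4.08%. Matches per 100 kb were 1.57, 1.98, 2.54 and 1.02 in the same order, and the median GC content was 44.3%, 43.6%, 46.6% and 39.2%. The composite motif of POU5F1 and SOX2 was in 0.898% of ESC-only contacted fragments (Wilson 0.622 to 1.29) and in 1.00% of all fragments. The composite shares for NEC-only pairs and for pairs in all 4 replicates lay within this interval. The POU octamer, which shares letters with the composite, was in 28.6% of ESC-only contacted fragments and 35.5% of all fragments. For NEC-only pairs the octamer share was 29.2%, and for pairs in all 4 replicates 25.4%. A lower octamer share than in all fragments was thus not particular to ESC-only pairs. Matches in fragments of named members are shown on the strand of the match, in GRCh37, with the matched letters in capitals and 14 bases on each side.
SHH fragment contacted by MNX1, chr7:155598722-155598762, plus strand: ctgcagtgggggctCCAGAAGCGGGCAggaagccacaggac
SIX3 bait, chr2:45178099-45178139, minus strand: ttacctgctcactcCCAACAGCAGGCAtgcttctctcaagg
VAX1 bait, chr10:118898220-118898260, plus strand: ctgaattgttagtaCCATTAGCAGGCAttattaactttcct
LEFTY2 bait, chr1:226134409-226134449, plus strand: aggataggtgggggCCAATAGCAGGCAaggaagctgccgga
LEFTY2 bait, chr1:226122048-226122088, minus strand: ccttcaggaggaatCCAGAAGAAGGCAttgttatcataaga
These are matches of letters and not measured binding sites.

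Gene expression at ESC-only promoters was close to the background. Of the 4407 genes that start in a member bait, 3084 passed the filter on low counts, and 293 of these, or 9.50%, fell in NECs, where 9.68% of all genes tested did. A further 334, or 10.8%, rose, beside 11.4% of all genes tested. Their median log2 fold change was -0.02, against 0.01 over all genes tested. At promoters with NEC-only pairs 7.23% fell and 14.4% rose. Genes that start in the contacted fragments gave 146 of 1558 lower, or 9.37%, and 178 higher, or 11.4%. Where genes started at both ends of a member, gene pairs were counted, and 1 member can give several. Both genes fell in 20 gene pairs, several of them with LEFTY1, both rose in 11 and 9 moved in opposite directions. No matching counts are given for other sets of pairs, so a shared direction cannot be called particular to members. In 132 gene pairs 1 gene fell and the other was not called, in 152 1 rose and the other was not called, and in 816 neither was called.

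The largest changes at ESC-only promoters went both ways. The 10 most negative at an average log2 CPM of at least 1 included LEFTY1 and LEFTY2, RP4-559A3.6 in the LEFTY2 bait, CYP2B6, a drug-metabolising enzyme, ARHGAP40, RTP1, a chaperone of olfactory receptors, and NLRP12, an innate immune sensor, besides CTC-286N12.1, RP11-727A23.10 and a long noncoding RNA gene that the count table lists under the symbol MIR4454, which is not a measure of that microRNA. CYP2B6 had 188 and 380 counts in ESCs and 0 in both NEC libraries, at least 96.7-fold higher in ESCs. The 10 most positive were MMRN1, TTR, APOA4, TFAP2B, HOXB3, AC018730.1, HOXA2, FAM181A, PAX2 and POU3F2. MMRN1, which encodes a platelet and endothelial multimerin, had 0 counts in both ESC libraries and 1847 and 1664 in NECs, at least 549-fold higher. TTR and APOA4, which encode secreted transport proteins, were at least 114-fold and 102-fold higher. POU3F2, a neural POU factor, stood at 0.477 and 0.202 CPM in ESCs against 124 and 104 in NECs and rose (log2 fold change 8.44 with SE 0.25, edgeR adjusted p = 1.03e-05).

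**Figure D5:**
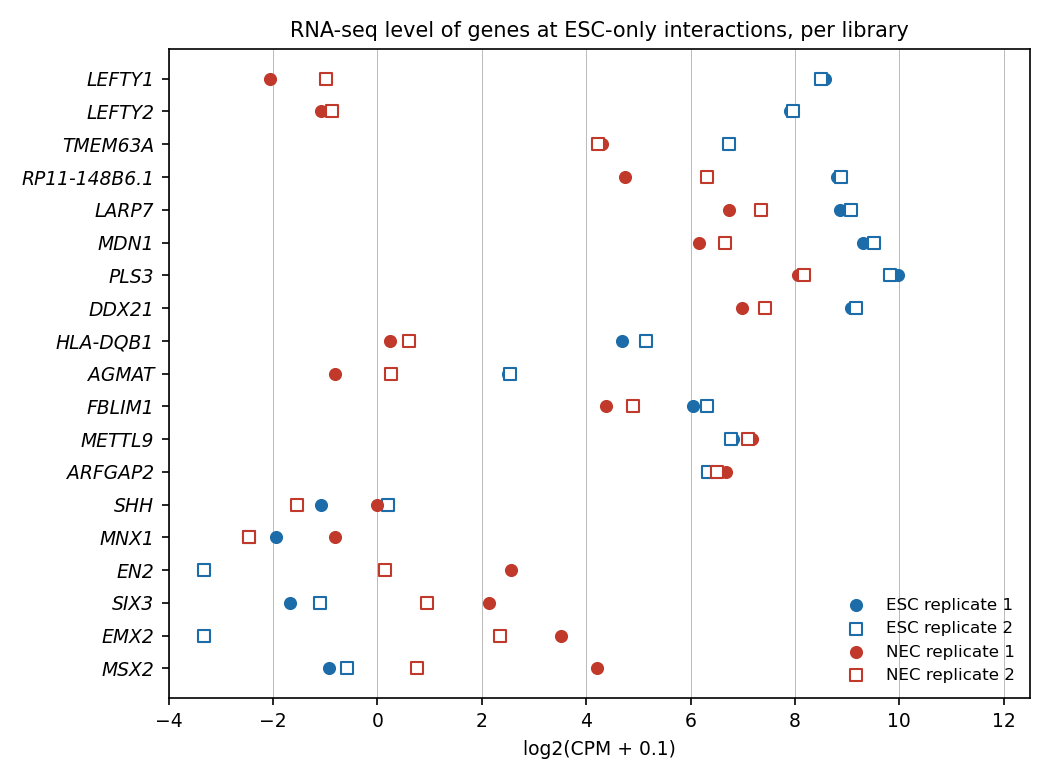
Points give log2(CPM + 0.1) in each of the 2 ESC and 2 NEC libraries for genes at either end of the named ESC-only pairs. LEFTY1, LEFTY2 and MDN1 are higher in both ESC libraries than in either NEC library, EN2, SIX3, EMX2 and MSX2 are lower, and SHH overlaps.

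Of the pluripotency list, 25 of 30 genes had their start in a bait, and 6 of these held members, or 24%, against 19.0% of all baits. PRDM14, TFAP2C and TERT fell, with log2 fold changes of -4.71, -2.06 and -1.54, ESRRB rose from 3 and 2 counts to 30 in each NEC library, and SOX2 and OTX2 were not called. Over the whole list 19 of 29 tested genes fell and 1 rose, and 7 held NEC-only pairs. PRDM14, a repressor that guards the pluripotent state, reached a fragment 79.5 kb away at 12.31 and 13.25. TFAP2C, which is a trophoblast and naive-state factor, reached the bait of BMP7 over 640 kb at 14.79 and 15.45. BMP7 rose by 3.45 on the log2 scale where TFAP2C fell. SOX2 held 1 member, over 682 kb, and 6 NEC-only pairs. ESRRB, an orphan nuclear receptor, reached baits at 403 and 674 kb.

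In the list of NODAL, FGF and WNT signalling genes, 8 of 39 baited genes, or 20.5%, held members and 16 held NEC-only pairs. Over this list 13 of 39 tested fell and 7 rose. Of the ligands and antagonists, LEFTY1, LEFTY2 and FGF8 fell, the last by 2.65 on the log2 scale (SE 0.30), while WNT3 and SFRP2 were not called. FGF8, which patterns the gastrula and the midbrain boundary, held members at 460 and 520 kb, the latter with a NEC call within 10 kb. The receptors FGFR1 and FGFR2 and the transcriptional repressor TCF7L1 were not called either, the last at -1.5, just short of the threshold. Of the adhesion list, 3 of 20 baited genes held members, namely ESRP2, which regulates epithelial splicing and fell by 1.58 on the log2 scale, and L1CAM and PCDH1, which were not called. Of the adhesion genes 9 of 20 tested fell and 3 rose, and 5 held NEC-only pairs.

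Marker genes of the differentiated state also held ESC-only pairs. Of 18 baited neuroectoderm genes, 6 did, or 33.3%, where 19.0% of all baits held a member. Of these 6 genes 4 rose, namely PAX6, SIX3, POU3F2 and POU3F3, while SOX2 and ZIC2 were not called. Over the whole list 16 of 19 tested rose, and 11 baited genes held NEC-only pairs. PAX6, an eye and forebrain factor, reached fragments at 417 and 716 kb, and POU3F2 reached fragments at 1186 and 1207 kb. For each of these PAX6 and POU3F2 members a NEC list held a call within 10 kb, and the POU3F2 bait also held 6 NEC-only pairs. Of 10 neural crest genes 5 held members and all 5 rose, TFAP2A, TFAP2B, SNAI2, PAX3 and NGFR. Over the whole neural crest list 6 of 10 tested rose and 1 fell, and 6 held NEC-only pairs. NGFR, a neurotrophin receptor, reached the bait of DLX3 over 497 kb at 13.80 and 19.30. TFAP2B had 0 counts in both ESC libraries but 339 and 36 in the NEC libraries, so its level differed widely between the latter. Of 12 mesendoderm genes, GATA6 and HAND1 held members, or 16.7%, and neither was called. Over the mesendoderm list 7 of 10 tested fell and 1 rose, and 5 genes held NEC-only pairs. Of 9 trophoblast genes 4 held members, or 44.4%. Of these, CDX2 and HAND1 were too low to test, GATA3 was not called and TFAP2C fell. Of the trophoblast list 2 of 4 tested fell and 1 rose, and 4 held NEC-only pairs. CDX2 reached 3 fragments at 42.3 to 151 kb while it had 0 counts in both ESC libraries. A NEC call lay within 10 kb of each of these 3 fragments.

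A few pairs joined genes that fell together over long distances. INADL, a polarity scaffold gene, reached HOOK1, which links vesicles to microtubules, over 1927 kb at 21.80 and 14.43, with log2 fold changes of -2.16 and -1.58. TAGLN2, an actin-binding protein gene, reached CD1D, which presents lipid antigens, over 1743 kb at 14 and 12.92, with log2 fold changes of -2.72 and -2.59. SLC6A20 reached CDCP1 over 654 kb, with log2 fold changes of -4.87 and -4.24. SLC6A20 had only 12 and 23 counts in ESCs and 0 and 1 in NECs, at least 5.98-fold higher in ESCs. Among the pairs that moved apart, EPHA8 had a log2 fold change of -2.53 and its partner WNT4 one of 6.31, over 418 kb at 15.91 and 15.67. Most of the 11 gene pairs that rose together joined protocadherin genes, such as PCDHB11 and PCDHGC5 over 290 kb, and the gamma genes among these share exons and so reads. These pairs were picked from those with calls at both ends after their values were seen.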

How the data were processed

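Interaction lists and RNA-seq counts from H9 ESCs and day 7 NECs were analysed, with 2 biological replicates per cell type and assay. The members and the gene lists were chosen with earlier results of these data known.

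The authors mapped PCHi-C reads to GRCh37, removed duplicates and ran CHiCAGO, and the deposited lists hold its score per replicate and per cell type after merging. For RNA-seq, the authors aligned reads to GRCh37 and deposited unnormalized read counts per gene, counted without regard to strand. The submitters' processing notes name hg19. Conventional Hi-C was not analysed here.

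A pair was kept with its order, bait first. Motif matches were sought in GRCh37 on both strands. A bait is a fragment listed first in any list. Gene starts came from the count table and gene types from GENCODE, and distances run between fragment midpoints. Genes with adequate counts (filterByExpr, minimum count 10; 17564 genes) were normalized by TMM and tested with edgeR 4.0.16 quasi-likelihood tests in R 4.3.3. Genes with Benjamini-Hochberg adjusted p under 0.05 and absolute log2 fold change above 1.5 were called. DESeq2 1.42.0 was an alternative. A gene was at the floor where both libraries of a cell type had at most 3 counts. With 2 against 2 libraries no permutation test can reach 0.05, and none was made. Same-numbered ESC and NEC RNA libraries shared a deviation correlation of 0.061, so the numbers were not taken to pair them.

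Named were the 12 baits with the most members, the 10 highest and 3 lowest pairs, the contacted fragments with most baits (5, with ties kept), the 10 called genes with the most negative and the 10 with the most positive change, and every listed gene whose bait held a member. Genes at or beside these pairs were also named. Some items that this rule names are not reported here. The rule was tested on simulated lists, and in simulated counts of 17239 genes with 200 changed, edgeR recovered 200 with 1 false call and DESeq2 recovered 195 with 0.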

Additional observations from a re-analysis of the deposited data

How the results depend on the processing

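The number of ESC-only interactions was 378 at a score of at least 15 and 3046 where no NEC call lay within 10 kb. Under these alternatives the median distance was 365 and 332 kb, the share between baits 53.2% and 54.0%, the genes lower in NECs 25 and 180 and the genes higher 28 and 181. Leaving out each replicate in turn gave 6496 to 59261 interactions, median distances of 305 to 535 kb, shares between baits of 18.4% to 41.3%, 274 to 1175 genes lower, 302 to 1415 higher and median log2 fold changes of -0.04 to 0.01. Leaving out an ESC replicate of PCHi-C gave the largest numbers of interactions and genes, since a pair then needs 1 ESC call, and the lowest shares between baits. Adjusted p alone gave 948 genes lower and 941 higher. The median log2 fold change was -0.05 without the count filter, 0.04 with library size alone, -0.04 with DESeq2 size factors and with the DESeq2 test, and -0.05 for baits with 1 gene start. With the replicate block, 298 genes were lower and 335 higher. With fragment order ignored, 385 genes were lower and 447 higher, and 24.8% of all baits and 40.2% of keratin baits held a member. Ignoring order or requiring the merged ESC call moved no count of interactions or genes by over 1.5 times. CHiCAGO scores without read numbers limit any statement about contacts just below the threshold of 12. In a setting added after the data were seen, a score of at least 15 left ESC-only and NEC-only pairs on 2.46% and 0.820% of keratin baits, 4.84% and 1.29% of olfactory receptor baits, 4.83% and 1.45% of homeobox baits and 4.35% and 76.1% of histone cluster baits, where 1.46% of all baits held an ESC-only pair.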
